A study of Mus musculus with 12 samples.

Results

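Interferon-stimulated genes are the genes that cells switch on when an interferon reaches them, and their products restrict viruses and other pathogens. A set of 39 such genes was taken by symbol from a table of 16728 genes measured in cultured mouse liver cells. Of the 39, 37 were listed there, while Mx1 and Mx2 were not analysed here. A test could be run on 36 of the 37. Oas2, an enzyme that makes a messenger nucleotide on viral RNA, had at most 5 reads in a library and was removed by the filter on low counts.

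RNA was sequenced from primary hepatocytes of C57BL/6 mice, either wild-type (WT) or Fxr-/- (KO), with 12 libraries in 4 groups of 3. Fxr, encoded by Nr1h4, is a nuclear receptor that senses bile acids and is abundant in hepatocytes. Cells of both genotypes were cultured in serum-containing DMEM and received either FAC or AC at 100 µM for 24 h, so that every group had an agent added and no group was left untreated. The series title speaks of iron overload. What FAC and AC stand for is not spelled out in the labels. The groups are called WT AC, WT FAC, KO AC and KO FAC, and a library is named by its group and its number in the labels (1 to 3 with AC, 4 to 6 with FAC). The sources used here do not say how the Fxr allele was made, or whether libraries of a group came from separate mice or cultures, so p-values measure only the spread between these libraries, which may be technical.

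As background, type I interferons bind the receptor of Ifnar1 and Ifnar2, and the kinases Jak1 and Tyk2 then activate transcription factors of the Stat family. With Irf9 these form a complex that binds the interferon-stimulated response element (ISRE) in promoters. Interferon gamma binds Ifngr1 and Ifngr2, acts through Jak1 and Jak2, and leads to binding at the gamma-activated site (GAS). Hepatocytes carry both receptors, and many of the 39 genes answer to both routes.

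Promoter windows from 250 bases before to 50 bases after the annotated start were read from RefSeq (GRCm38.p6, the build named for the files) to show these elements in the members. A window was found for 28 of the 39 members. The ISRE core GAAANNGAAA, searched on both strands, occurred in 18 of the 28 windows (64.3%) and in 3.99% of the windows of 27025 genes. The GAS core TTCNNNGAA, which reads as the same pattern on either strand, occurred in 8 of the 28 (28.6%) and in 9.55% of all windows. Overlapping matches were counted once for a gene. A match is a run of letters and not a measured binding site. The stretches below, written 5′ to 3′ along the gene, have ISRE and GAS cores in capitals. The stretches of 7 genes are shown because these genes passed the test in a comparison below, and that of Cxcl10 because it passed none although its window holds an ISRE core.
Isg15: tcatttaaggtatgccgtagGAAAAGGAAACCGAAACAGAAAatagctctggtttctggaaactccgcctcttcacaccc
Ifit1: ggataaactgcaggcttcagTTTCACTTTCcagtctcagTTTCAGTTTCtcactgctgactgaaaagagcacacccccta
Ifit3: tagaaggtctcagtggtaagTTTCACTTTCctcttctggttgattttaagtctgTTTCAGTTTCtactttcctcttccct
Igtp: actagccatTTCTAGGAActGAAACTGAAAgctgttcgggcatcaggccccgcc
Irgm2: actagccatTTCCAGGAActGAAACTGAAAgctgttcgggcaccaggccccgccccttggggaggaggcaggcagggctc
Gbp2: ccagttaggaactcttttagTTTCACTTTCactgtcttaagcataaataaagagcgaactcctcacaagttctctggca
Trim30a: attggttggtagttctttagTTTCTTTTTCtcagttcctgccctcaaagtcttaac
Cxcl10: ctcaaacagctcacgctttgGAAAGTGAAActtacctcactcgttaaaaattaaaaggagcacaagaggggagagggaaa
The start is that of the promoter table, which for Ifit3 lies inside the span of the gene given further on. The Isg15 stretch, at chr4:156200837-156200916 (minus strand), holds 3 overlapping ISRE cores in one run of capitals. Those of Ifit1 at chr19:34640765-34640844 (plus strand) and Ifit3 at chr19:34583353-34583432 (plus strand) hold a pair of separate ISRE cores each, in the reverse orientation. The stretches of Igtp at chr11:58199502-58199555 (plus strand) and of Irgm2, which lies near it on chromosome 11, at chr11:58214893-58214972 (plus strand) each have a GAS core followed by an ISRE core. Laid side by side from their first base without gaps, they were identical at 52 of 54 positions. Gbp2 at chr3:142620584-142620662 (plus strand), Trim30a at chr7:104465194-104465249 (minus strand) and Cxcl10 at chr5:92349043-92349122 (minus strand) hold a single ISRE core. Cxcl9, which lies near Cxcl10 on chromosome 5, had neither core in its window, which says only that these letters are not there.

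Depth was similar in all libraries, at 16464494 to 18335700 estimated reads, and libraries of a group correlated at 0.983 to 0.997 over genes on the log scale. Levels are given as CPM (counts per 1000000 reads, with library totals scaled by the TMM method), which compares a gene between libraries but not with other genes. Nr1h4 itself had 12.98 to 15.6 CPM in WT AC and 6.97 to 9.35 CPM in KO AC, a log2 difference of -0.81 (adjusted p = 0.000535). FAC lowered it in both genotypes, to 6.95 to 7.69 CPM in WT and 3.54 to 4.89 in KO. Reads from outside the altered part of the gene check nothing, and the sources used here do not name that part. Hepatocyte markers summed to 25011 to 25934 CPM in WT AC, 33051 to 34986 in WT FAC, 26966 to 28816 in KO AC and 35592 to 36580 in KO FAC. Most of that sum was Alb. Of the 12 markers, 9 were higher and 2 lower in KO under AC (21.7% and 21.2% of all genes), with a median log2 difference of 1.34. Under FAC 9 were higher and 1 lower (24.6% and 24.9% of all genes), with a median of 1.52. With FAC against AC in WT, 5 were higher and 2 lower (8.7% and 8.55% of all genes), with a median log2 change of 0.36. In KO 10 were higher and 0 lower (15% and 14.6% of all genes), with a median of 0.56.

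Cells other than hepatocytes also answer to interferon, so their markers are set beside the results. Of 14 macrophage markers 13 were in the table, and they summed to 354 to 432 CPM in WT AC, 657 to 708 in WT FAC, 557 to 689 in KO AC and 729 to 864 in KO FAC. Nearly all of that was Cd68, a lysosomal protein. Timd4 and Clec4f, which mark resident liver macrophages, were at 0 in 10 of 12 libraries each, Adgre1 reached at most 2.38 CPM, and both Adgre1 and Marco were lower in KO than in WT under both treatments, with log2 differences of -2.76 and -2.75 under AC. Of the 6 macrophage markers tested, 4 were lower and 1 higher in KO under each treatment. The higher one was Cd68, by log2 0.71 under AC and 0.27 under FAC. The 5 T and NK cell markers in the table summed to at most 1.48 CPM, with Cd3e at 0 in 9 libraries and Cd3g and Cd4 in 11 each. Neutrophil markers summed to at most 0.859 CPM. Dendritic cell markers summed to 7.04 to 15.5 CPM, most of it Tcf4 and Zbtb46, with Flt3 and Siglech at 0 in 11 libraries each. B cell markers summed to 4.01 to 7.86 CPM, most of it Pax5, with Cd79a at 0 in 9 libraries. Of the 2 tested, 1 was higher in KO under AC and 2 under FAC, there by log2 0.47 and 5.63. Lower in KO under each treatment were 1 of 2 tested dendritic cell markers and the 1 tested T and NK cell marker. Endothelial markers summed to 45.3 to 52.8 CPM in WT and 32.2 to 46.8 in KO, most of it Stab1 and Stab2. Of the 8 tested, 5 were lower and 1 (Stab2) higher in KO under each treatment, with median log2 differences of -1.13 under AC and -1.81 under FAC. Stellate cell markers summed to 13.0 to 18.7 CPM in WT and 4.51 to 7.50 in KO, where 5 of 6 tested were lower under each treatment. Bile duct markers summed to 343 to 403 CPM in WT and 92.4 to 165 in KO, where Spp1 was lower, at 46.1 to 85.05 CPM against 306 to 366. Of the other 3 tested, none was called under AC, and Krt19 and Sox9 were higher in KO under FAC, by log2 1.59 (adjusted p = 8.68e-05) and 0.97 (adjusted p = 0.00144). Of all genes, 21.7% were higher and 21.2% lower in KO under AC, and 24.6% and 24.9% under FAC. With FAC in WT, 1 of 6 tested macrophage markers was higher and 2 lower. There 3 of 8 endothelial markers were higher and 1 of 6 stellate cell markers lower (all genes 8.7% and 8.55%). With FAC in KO, 1 macrophage and 2 of 4 bile duct markers were higher and 1 stellate cell marker lower (all genes 15% and 14.6%). The part of these cells in the results below was not tested, and in bulk RNA fewer cells of a type and less RNA per cell cannot be told apart.

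The interferon-stimulated genes stood highest in KO AC. Their summed level was 1321 to 1597 CPM in WT AC, 1317 to 1405 in WT FAC, 2159 to 2279 in KO AC and 1546 to 1857 in KO FAC. The KO AC range overlapped none of the other ranges, and both KO ranges lay above WT FAC. The group mean was highest in KO AC for 31 of the 36 tested members, in WT AC for 3, in KO FAC for 2 and in WT FAC for 0. Libraries within a group also differed across the members. WT AC 2 held the lowest of the 3 WT AC values for 30 of 36 members, and KO FAC 4 held the lowest of the 3 KO FAC values for 30 of 36. The highest group and the lowest library were not counted over all genes. Whether these patterns are particular to the members is therefore not shown. Counts of members are given with and without these libraries.

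**Figure D1:**
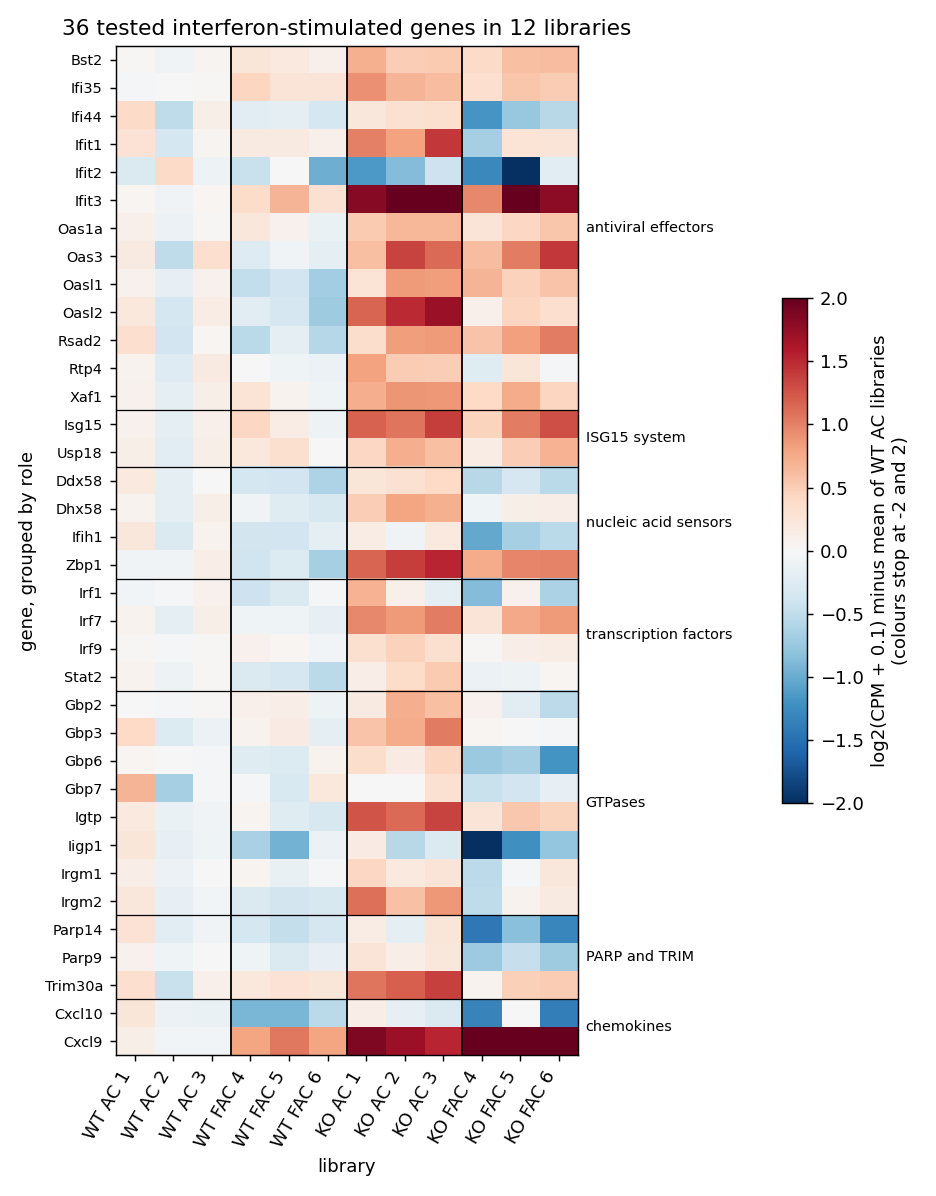
Heat map of the 36 tested members (rows, grouped by role) in the 12 libraries (columns), as log2(CPM + 0.1) minus the mean of the WT AC libraries, with colours limited to -2 and 2. Most rows are reddest in the KO AC columns, the chemokine Cxcl9 is reddest in KO FAC, and the WT AC 2 and KO FAC 4 columns are bluer than their neighbours.

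Per length, the members spanned a wide range, measured by the deposited FPKM values. Bst2, which tethers virus particles to the cell, led in WT AC with a mean of 360 FPKM and was also first in KO AC with 504 FPKM. Irf7 and Oasl1 followed in both groups, at 53.0 and 52.4 FPKM in WT AC and 96.1 and 78.4 FPKM in KO AC. Ifit2, Oas3 and Oas2 were the lowest in both, each under 1 FPKM. The order changed most for a few members. By mean FPKM, Cxcl9 was 22nd of 37 in WT AC and 11th in KO AC, Zbp1 was 18th and then 10th, Oasl2 was 27th and then 17th, whereas Cxcl10 was 4th and then 13th and Iigp1 was 14th and then 24th.

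The first comparison asks what FAC does to these genes in WT hepatocytes. The chemokine Cxcl9 rose and was 29.1 to 32.99 CPM under AC and 52.5 to 63.1 under FAC. Ifi35, an interferon-induced regulator of antiviral signalling, also rose and was 42.2 to 43.2 CPM under AC and 50.8 to 57.4 under FAC. The antiviral protein Oasl1 and the RNA sensor Ddx58 fell, as did the nucleic acid sensor Zbp1 and the transcription factor Stat2. Oasl1 was 89.4 to 106 CPM under AC and 61.4 to 76.8 under FAC. In edgeR's quasi-likelihood test, with Benjamini-Hochberg adjustment over 12275 genes, 2 of 36 members were higher where 8.7% of all genes were, and 4 were lower where 8.55% of all genes were. Both shares lie near those of all genes, and the other 30 members did not pass. The median log2 fold change of the members was -0.15 and that of all genes was -0.0024. Without WT AC 2, 8 members were lower and the median was -0.23, and without WT FAC 6 none was lower.

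In KO hepatocytes, more of the members were lower under FAC than under AC. Parp14, an ADP-ribosyltransferase of the interferon response, was 88.6 to 119 CPM under AC and 37.1 to 56.4 under FAC. Gbp6, a guanylate-binding protein that acts on intracellular pathogens, was 25.9 to 30.98 CPM under AC and 10.1 to 14.5 under FAC. Oasl2 was 38.5 to 56.9 CPM and 18.4 to 23.2. In all, 21 of 36 members (58.3%) were lower, where 14.6% of all genes were, and 1 (Cxcl9) was higher, where 15% of all genes were. The fold change was below 0 for 34 of the 36 and for 6169 of all 12275 genes tested. The median was -0.61 for the members and -0.0020 for all genes. By role, 6 of 13 antiviral effectors fell, 4 of 4 nucleic acid sensors, 2 of 4 transcription factors, 6 of 8 GTPases, 3 of 3 PARP and TRIM proteins, 0 of 2 in the ISG15 system and 0 of 2 chemokines. Without KO FAC 4, 18 members were lower and the median was -0.46. Without both KO AC 1 and KO FAC 4, 20 were lower and the median was -0.44.

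Under AC, the genotype comparison compares the libraries labelled Fxr-/- with WT where no FAC was given. Ifit3, which binds and sequesters foreign RNA together with its relatives, was 9.15 to 17.5 CPM in KO and 2.39 to 2.59 in WT. Isg15, a ubiquitin-like protein attached to other proteins in the antiviral state, was 41.2 to 51.4 CPM in KO and 17.2 to 21.01 in WT, and Igtp, a GTPase of the interferon gamma response, was 86.5 to 101 and 35.97 to 45.3. Of the 36 members, 25 (69.4%) were higher in KO, where 21.7% of all genes were, and 0 were lower, where 21.2% of all genes were. No member was lower at an unadjusted p under 0.05 either, or by DESeq2, which called 26 higher. Of all genes, DESeq2 called 2713 higher and 2507 lower, and calls at an unadjusted p were not counted. The median log2 difference was 0.61, against -0.0033 for all genes. Without WT AC 2, 22 members were higher, 0 were lower and the median was 0.52. Both ISG15 system members, 11 of 13 antiviral effectors, 3 of 4 sensors, 3 of 4 transcription factors, 4 of 8 GTPases, 1 of 2 chemokines and 1 of 3 PARP and TRIM proteins were higher. This comparison and that of FAC in KO use the same KO AC libraries, so a value that is high there enters both.

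Under FAC, the genotypes differed less and in both directions. Cxcl9 was 170.1 to 181 CPM in KO and 52.5 to 63.1 in WT, and Zbp1 was 24.4 to 28.9 and 9.18 to 11.99. Parp14 was lower in KO, at 37.1 to 56.4 CPM against 72.3 to 79.95, and so was Gbp6, at 10.1 to 14.5 against 19.2 to 24.3. Higher in KO were 14 of 36 members (38.9%), where 24.6% of all genes were, and lower were 5 (13.9%), where 24.9% of all genes were. The median log2 difference was 0.13, against -0.011 for all genes. It was 0.0033 when limma was run on log2(FPKM + 1), where the median of all genes was -0.10 and 34.9% of the calls over all genes were higher, compared with 49.7% in the edgeR fit. All 14 members that were higher under FAC were among the 25 that were higher under AC. These comparisons use different libraries but the same fit, and such an overlap was not counted over all genes. The other 11 of the 25 were not called under FAC. Without KO FAC 4, 17 members were higher and 4 lower, and the median was 0.24.

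**Figure D2:**
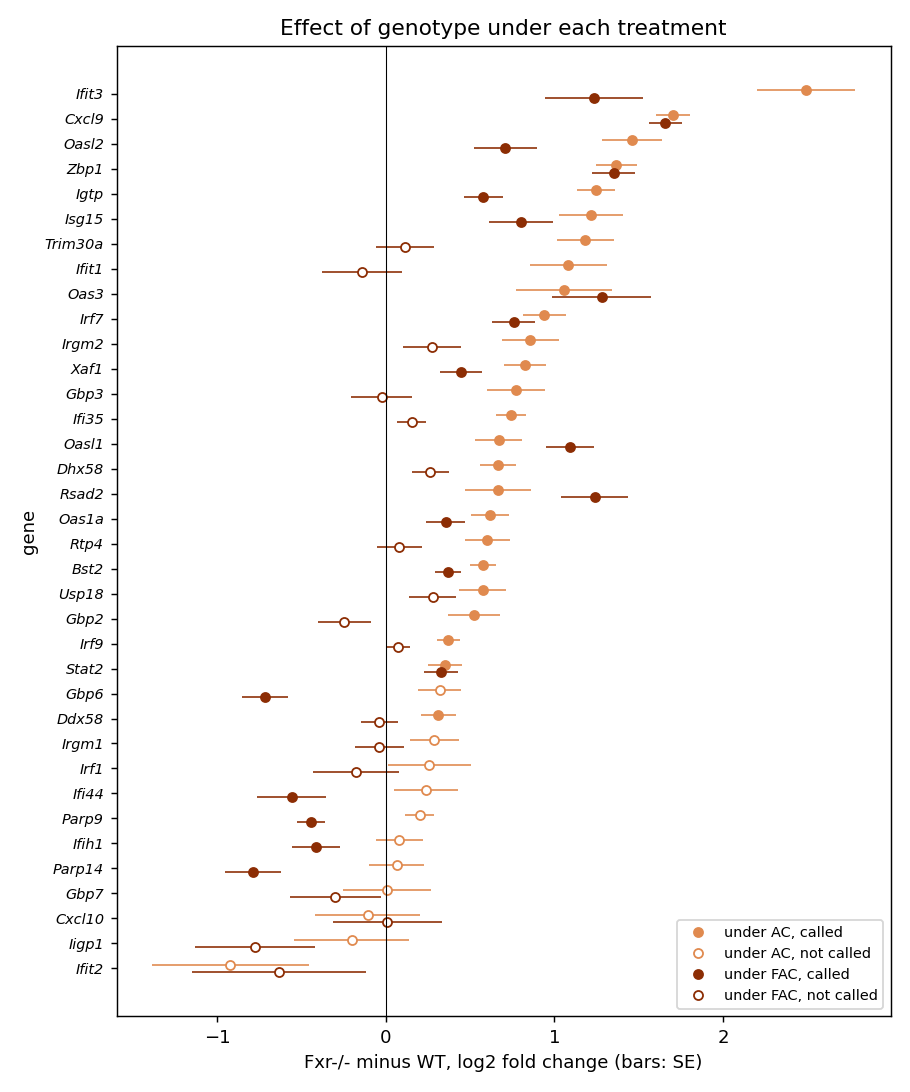
Log2 fold change of KO against WT (x axis, bars are SE) for each of the 36 members (y axis, ordered by the value under AC), under AC in light orange and under FAC in dark brown, with filled points where the adjusted p was under 0.05. Under AC, 25 filled points lie to the right of 0 and none to the left, whereas under FAC 14 lie to the right and 5 to the left.

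Whether FAC acted differently in the 2 genotypes was tested directly as the difference of the FAC effects, KO minus WT. It was lower for 5 of 36 members (Trim30a, Gbp6, Igtp, Parp9 and Ifi35), where 1.28% of all genes were, and higher for 0, where 1.87% of all genes were. No member was higher at an unadjusted p under 0.05 or by DESeq2, and 19 were lower at an unadjusted p under 0.05. Calls at an unadjusted p were not counted over all genes, so the 19 cannot be set against the shares above. The FAC effect in KO was below that in WT for 31 of the 36 and for 6254 of all 12275 genes tested. The median difference was -0.41 against -0.0067 for all genes. DESeq2 called 9 members lower, and of all genes it called 313 lower and 365 higher. In edgeR, the count of lower members was 2 without WT AC 2, 1 without WT AC 3, 2 without WT FAC 4, and 3 without WT FAC 5, WT FAC 6, KO AC 2 or KO AC 3. It was 7 without WT AC 1 or KO AC 1, 6 without KO FAC 4, and 4 without KO FAC 5 or KO FAC 6. Of the 18 members called lower with FAC in KO and not in WT, the difference between the genotypes was called for 5. With the replicate number added to the fit as a block, it was called for 0.

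**Figure D3:**
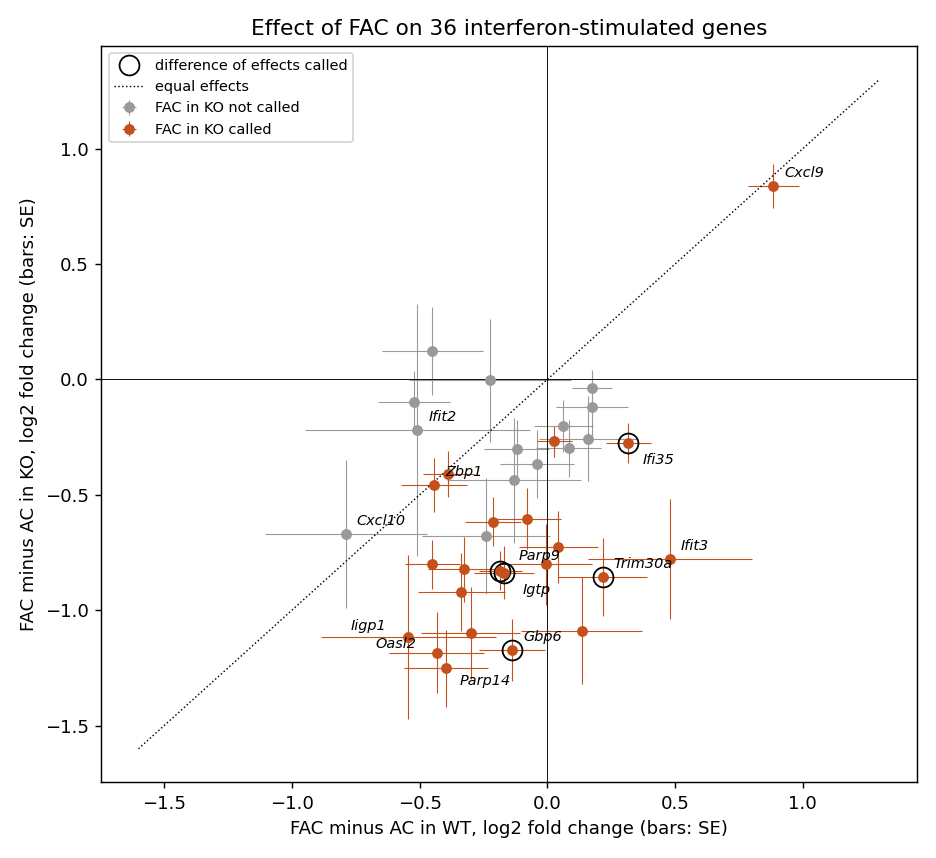
Log2 fold change with FAC in WT (x axis) and in KO (y axis) for the 36 members, with SE bars, orange points where the change in KO passed the test, and rings where the difference of the 2 effects passed. Of the 36 points, 31 lie below the dotted line of equal effects, and Cxcl9 stands apart at the upper right.

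Several members lie in clusters of the genome (GRCm38.p6). The Ifit genes are on chromosome 19, with Ifit2 at chr19:34550550-34576534, Ifit3 at chr19:34583119-34588982 and Ifit1 at chr19:34640889-34650009. Pairs that lie near each other are Igtp at chr11:58199556-58207592 and Irgm2 at chr11:58214977-58222783, Parp14 at chr16:35831892-35871518 and Parp9 at chr16:35938470-35972621, and Cxcl9 at chr5:92321331-92328079 and Cxcl10 at chr5:92346638-92348889.

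Among the antiviral effectors, Ifit3 had the largest genotype difference under AC. It measured 2.59, 2.39 and 2.58 CPM in WT AC, 3.29, 4.09 and 3.12 in WT FAC, 9.15, 15.8 and 17.5 in KO AC, and 5.01, 10.8 and 8.99 in KO FAC. All KO values lay above all WT values, and KO AC 1 and KO FAC 4 were the lowest of their groups. The log2 difference of KO from WT was 2.49 (SE 0.29, adjusted p = 2.85e-05) under AC and 1.23 (SE 0.29, adjusted p = 0.00353) under FAC, and the change with FAC in KO was -0.78 (SE 0.26, adjusted p = 0.0396), with overlapping groups. That last call was lost, by adjusted p, without KO AC 2 (0.113) or 3 (0.162), or KO FAC 4 (0.097) or 6 (0.0605), and in a fit of the 2 KO groups alone (0.138). Ifit3 has a near-identical copy, Ifit3b, and its estimated counts were not whole in all 12 libraries, so reads may be divided between them. Ifit3b was also higher in KO under AC, by log2 2.08 (adjusted p = 0.000161). Ifit1, of the same family, measured 11.7, 7.52 and 9.96 CPM in WT AC, 10.9, 10.9 and 10.3 in WT FAC, 19.4, 16.8 and 25.6 in KO AC, and 5.98, 11.6 and 11.5 in KO FAC. Only the KO AC values stood apart. Ifit1 was higher in KO under AC by log2 1.08 (SE 0.23, adjusted p = 0.00247) and fell with FAC in KO by a log2 fold change of -1.09 (SE 0.23, adjusted p = 0.00439). Ifit2 had at most 22 reads in a library and passed no test.

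The oligoadenylate synthetases and their relatives of the Oasl type sense double-stranded RNA or bind viral RNA. Oasl2 measured 19.8, 13.4 and 18.99 CPM in WT AC, 14.7, 13.5 and 10.4 in WT FAC, 38.5, 48.3 and 56.9 in KO AC, and 18.4, 23.2 and 21.7 in KO FAC. Its KO AC values lay above those of every other group, with a log2 difference of 1.46 (SE 0.18, adjusted p = 3.48e-05) from WT, and the change with FAC in KO was -1.18 (SE 0.18, adjusted p = 0.000445). Under FAC it was still higher in KO, by log2 0.71 (SE 0.18, adjusted p = 0.00652). Oasl1, which limits translation of Irf7 mRNA, measured 106, 89.4 and 105 CPM in WT AC, 71.2, 76.8 and 61.4 in WT FAC, 121, 179.9 and 178 in KO AC, and 159.8, 138 and 149 in KO FAC. It fell with FAC in WT, by a log2 fold change of -0.52 (SE 0.14, adjusted p = 0.0227), and did not pass in KO, at -0.10 (adjusted p = 0.621). KO was above WT by log2 0.67 (SE 0.14, adjusted p = 0.00207) under AC and 1.09 (SE 0.14, adjusted p = 4.52e-05) under FAC, but the difference of the FAC effects did not pass, at 0.42 (adjusted p = 0.265). The fall in WT was not called without WT AC 1 (0.076) or 3 (0.0763), or WT FAC 4 (0.0603) or 6 (0.0901). Oas3 had few reads, at 1.64, 0.977 and 1.85 CPM in WT AC, 1.18, 1.37 and 1.26 in WT FAC, 2.24, 3.84 and 3.27 in KO AC, and 2.25, 3.04 and 3.99 in KO FAC. It was higher in KO under AC by log2 1.06 (adjusted p = 0.00936) and under FAC by log2 1.28 (adjusted p = 0.00284). Oas1a, which shares reads with Oas1g, was higher in KO by log2 0.62 (adjusted p = 0.000731) under AC and 0.35 (adjusted p = 0.0193) under FAC. The latter was not called without WT FAC 6 (0.0919), or KO FAC 6 (0.0808).

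Rsad2, or viperin, makes a nucleotide that stops viral RNA synthesis. It measured 54.6, 32.9 and 44.4 CPM in WT AC, 29.5, 38.1 and 28.96 in WT FAC, 54.95, 76.7 and 77.5 in KO AC, and 63.8, 76.5 and 87.4 in KO FAC. Under each treatment all KO values lay above all WT values, and KO AC 1 at 55.0 CPM barely exceeded WT AC 1 at 54.6. KO was above WT by log2 1.24 (SE 0.20, adjusted p = 0.000315) under FAC and by log2 0.66 (SE 0.19, adjusted p = 0.0165) under AC. The latter was not called without WT AC 2 (0.0538), or KO AC 2 (0.0586) or 3 (0.0595). Ifi44, an antiviral protein that also restrains interferon responses, measured 15.4, 8.28 and 12.9 CPM in WT AC, 10.2, 10.2 and 9.23 in WT FAC, 13.8, 14.6 and 14.7 in KO AC, and 5.12, 6.93 and 8.03 in KO FAC. Its KO FAC values lay below those of all other groups, with a log2 change with FAC in KO of -1.10 (SE 0.20, adjusted p = 0.00146). Under FAC it was lower in KO than in WT, with a log2 difference of -0.56 (adjusted p = 0.0354), a call lost without WT FAC 4 (0.0861), 5 (0.0877) or 6 (0.0519), or KO FAC 4 (0.136) or 5 (0.0684).

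Ifi35 was one of the members that FAC moved in opposite directions. Its values were 42.2, 42.6 and 43.2 CPM in WT AC, 57.4, 50.8 and 51.3 in WT FAC, 80.1, 68.5 and 65.7 in KO AC, and 53.96, 62.8 and 60.5 in KO FAC. The WT FAC values lay above all WT AC values, and the KO FAC values lay below all KO AC values. The log2 change with FAC was 0.32 (SE 0.09, adjusted p = 0.0246) in WT and -0.27 (SE 0.09, adjusted p = 0.0303) in KO, and the difference was -0.59 (SE 0.12, adjusted p = 0.0251). All 3 calls depended on single libraries. The rise in WT was not called without WT AC 1 (0.0706), 2 (0.0635) or 3 (0.0678), or WT FAC 4 (0.112), the fall in KO without KO AC 1 (0.101), or KO FAC 4 (0.113), and the difference without WT AC 2 (0.0625) or 3 (0.0696), or WT FAC 4 (0.0703). The fall in KO was also not called in a fit of the KO groups alone (0.0955). In KO against WT under AC, Ifi35 was higher by log2 0.74 (adjusted p = 2.05e-05). Xaf1, a pro-apoptotic protein, measured 15.8, 13.04 and 16.2 CPM in WT AC, 18.1, 15.7 and 14.01 in WT FAC, 24.7, 27.8 and 27.4 in KO AC, and 19.7, 25.05 and 20.3 in KO FAC. The KO AC values were above all others except KO FAC 5, and KO was above WT by log2 0.83 (adjusted p = 0.000168) under AC and by log2 0.44 (adjusted p = 0.00977) under FAC. The latter was not called without KO FAC 5 (0.0554). Bst2 was higher in KO by log2 0.58 (adjusted p = 6.67e-05) under AC and 0.37 (adjusted p = 0.00159) under FAC. Rtp4, a receptor-transporting protein that binds viral replication complexes, was higher in KO under AC by log2 0.60 (adjusted p = 0.00271) and fell with FAC in KO by a log2 fold change of -0.60 (adjusted p = 0.00474).

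Isg15 and Usp18 form a pair, since Usp18 removes Isg15 from proteins and also blocks signalling at the type I receptor. Isg15 measured 20.8, 17.2 and 21.01 CPM in WT AC, 26.02, 21.7 and 18.2 in WT FAC, 44.5, 41.2 and 51.4 in KO AC, and 26.8, 39.8 and 48.1 in KO FAC. All KO values lay above all WT values, and KO FAC 4 was far below KO FAC 5 and 6. KO exceeded WT by log2 1.22 (SE 0.19, adjusted p = 0.000307) under AC and 0.80 (SE 0.19, adjusted p = 0.00396) under FAC. With FAC its log2 change was 0.16 (adjusted p = 0.625) in WT and -0.26 (adjusted p = 0.319) in KO, and neither passed. Usp18 was higher in KO under AC by log2 0.57 (adjusted p = 0.0056) and did not pass under FAC, at 0.28 (adjusted p = 0.115).

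All 4 sensors of foreign nucleic acid were lower with FAC in KO, where 14.6% of all genes were. Zbp1, which senses Z-form nucleic acid and can start necroptosis, measured 13.9, 13.8 and 15.98 CPM in WT AC, 10.95, 11.99 and 9.18 in WT FAC, 32.6, 38.1 and 41.9 in KO AC, and 24.4, 28.8 and 28.9 in KO FAC. Its groups did not overlap in either genotype or treatment contrast, and KO lay above WT. The log2 difference of KO from WT was 1.37 (SE 0.12, adjusted p = 1.5e-06) under AC and 1.35 (SE 0.13, adjusted p = 1.69e-06) under FAC. The change with FAC was -0.44 (adjusted p = 0.0306) in WT and -0.46 (adjusted p = 0.011) in KO, with a difference of -0.02 (adjusted p = 0.975). The fall in WT was not called without WT AC 1 (0.0507) or 3 (0.12), or WT FAC 4 (0.0731) or 6 (0.123), or with limma on log2(FPKM + 1) (0.163). The fall in KO was not called without KO AC 3 (0.0565) or with limma on log2(FPKM + 1) (0.063). Ddx58 (RIG-I), a sensor of viral RNA ends, measured 50.5, 38.6 and 44.3 CPM in WT AC, 34.8, 34.1 and 28.9 in WT FAC, 52.5, 54.9 and 58.2 in KO AC, and 29.9, 34.9 and 30.3 in KO FAC. FAC lowered it in both genotypes, by a log2 fold change of -0.45 (SE 0.11, adjusted p = 0.0115) in WT and -0.80 (SE 0.11, adjusted p = 0.000176) in KO. The fall in WT was not called without WT FAC 6 (0.0556). Its higher level in KO under AC, by log2 0.31 (adjusted p = 0.0288), was not called without WT AC 2 (0.122) or 3 (0.0708), or KO AC 2 (0.0621) or 3 (0.0877), or with limma on log2(FPKM + 1) (0.124). Ifih1 (MDA5), a sensor of long double-stranded RNA, measured 52.5, 36.8 and 47.00 CPM in WT AC, 35.00, 34.4 and 39.3 in WT FAC, 49.6, 42.7 and 51.7 in KO AC, and 22.1, 28.3 and 30.97 in KO FAC. The KO FAC values were the lowest, with a log2 change with FAC in KO of -0.82 (SE 0.14, adjusted p = 0.00106) and a difference from WT under FAC of -0.42 (adjusted p = 0.0267). The latter was not called without WT FAC 6 (0.093), or KO FAC 4 (0.111). Dhx58 (LGP2), which modulates both RNA sensors, was higher in KO under AC by log2 0.67 (adjusted p = 0.000269) and fell with FAC in KO by a log2 fold change of -0.62 (adjusted p = 0.00106).

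Of the 4 transcription factors among the members, 3 were higher in KO under AC (21.7% of all genes) and 2 fell with FAC in KO (14.6% of all genes). Irf7, which drives the late wave of interferon production, measured 87.6, 74.2 and 90.8 CPM in WT AC, 78.6, 78.96 and 74.8 in WT FAC, 164, 151 and 169.8 in KO AC, and 100.0, 141 and 152 in KO FAC. All KO values lay above all WT values, by a log2 difference of 0.94 (SE 0.13, adjusted p = 8.86e-05) under AC and 0.76 (SE 0.13, adjusted p = 0.000343) under FAC. Stat2 measured 65.4, 58.1 and 63.1 CPM in WT AC, 50.9, 49.01 and 42.8 in WT FAC, 67.97, 80.4 and 89.5 in KO AC, and 57.1, 58.01 and 63.9 in KO FAC. It fell with FAC in both genotypes, by a log2 fold change of -0.39 (SE 0.10, adjusted p = 0.018) in WT and -0.41 (SE 0.10, adjusted p = 0.00812) in KO. It was higher in KO by log2 0.35 (adjusted p = 0.0125) under AC and 0.33 (adjusted p = 0.0159) under FAC. These were small changes. That in WT was not called without WT AC 1 (0.063) or 3 (0.0593), or WT FAC 6 (0.0818), that between genotypes under AC without WT AC 2 (0.0505), or KO AC 3 (0.0594), and that under FAC without WT FAC 6 (0.0752), or KO FAC 6 (0.0578). Neither genotype difference passed with limma on log2(FPKM + 1), at adjusted p = 0.0794 and 0.154. Irf9 was higher in KO under AC by log2 0.37 (adjusted p = 0.000823) and fell with FAC in KO by a log2 fold change of -0.27 (adjusted p = 0.0103), which was not called in a fit of the 2 KO groups alone (0.0518). Irf1, which acts downstream of interferon gamma, passed no test, and its values in KO AC spread from 30.02 to 55.2 CPM.

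The GTPases of the interferon response take part in defence against intracellular microbes. With FAC in KO, 6 of the 8 members of this kind were lower, where 14.6% of all genes were. Igtp measured 45.3, 35.97 and 37.8 CPM in WT AC, 40.98, 33.3 and 31.5 in WT FAC, 94.6, 86.5 and 101 in KO AC, and 47.3, 57.3 and 53.5 in KO FAC. KO AC stood far above the other groups, and KO FAC lay above WT FAC. KO was above WT by log2 1.25 (SE 0.12, adjusted p = 2.07e-06) under AC and 0.58 (SE 0.12, adjusted p = 0.00111) under FAC. The log2 change with FAC was -0.17 (adjusted p = 0.351) in WT and -0.84 (SE 0.11, adjusted p = 0.000199) in KO, and the difference was -0.67 (SE 0.16, adjusted p = 0.0429). That difference was not called without WT AC 2 (0.107) or 3 (0.121), or WT FAC 4 (0.11), 5 (0.0763) or 6 (0.0546), or KO AC 2 (0.0585) or 3 (0.0999), or KO FAC 4 (0.0512), 5 (0.0646) or 6 (0.0638). Irgm2, with the near-identical promoter stretch printed above, measured 45.4, 34.8 and 37.5 CPM in WT AC, 31.8, 30.4 and 31.1 in WT FAC, 83.4, 58.9 and 71.1 in KO AC, and 27.3, 41.1 and 44.4 in KO FAC. Its KO AC values also stood above all others, by log2 0.86 (SE 0.17, adjusted p = 0.00144) over WT. Its log2 change with FAC in KO was -0.92 (SE 0.17, adjusted p = 0.00174), and the difference from WT did not pass, at -0.58 (adjusted p = 0.204).

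Gbp6 showed another pattern. It measured 23.6, 22.98 and 22.6 CPM in WT AC, 19.5, 19.2 and 24.3 in WT FAC, 29.4, 25.9 and 30.98 in KO AC, and 13.8, 14.5 and 10.1 in KO FAC. Here KO FAC stood below all other groups. The log2 change with FAC was -0.14 (adjusted p = 0.508) in WT and -1.17 (SE 0.13, adjusted p = 5.59e-05) in KO, with a difference of -1.03 (SE 0.19, adjusted p = 0.0128). Under FAC it was lower in KO than in WT, with a log2 difference of -0.72 (SE 0.14, adjusted p = 0.000684). Its copy Gbp10 had at most 0.620 CPM. Iigp1, a GTPase that coats pathogen vacuoles, measured 55.02, 41.7 and 44.1 CPM in WT AC, 29.6, 24.3 and 42.8 in WT FAC, 52.5, 31.8 and 37.9 in KO AC, and 9.27, 19.8 and 27.2 in KO FAC. Libraries within its groups spread widely, and KO FAC 4 was the lowest of all. Its log2 change with FAC in KO was -1.12 (SE 0.36, adjusted p = 0.0403), not called without KO AC 1 (0.12) or 3 (0.0825), or KO FAC 4 (0.0666) or 5 (0.0867), and -0.55 (0.176) without both KO AC 1 and KO FAC 4. Nor was it called in a fit of the KO groups alone (0.116) or with no filter on low counts (0.0729). Gbp2 and Gbp3 were each higher in KO under AC, by log2 0.52 (adjusted p = 0.0145) and 0.77 (adjusted p = 0.00294), and fell with FAC in KO by log2 fold changes of -0.73 (adjusted p = 0.00386) and -0.80 (adjusted p = 0.00439). The Gbp2 difference between genotypes was not called without KO AC 2 (0.0695). Gbp7 and Irgm1 passed no test in any of the 5 comparisons.

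Parp14, which adds ADP-ribose to proteins, and Parp9, of the same family, lie close together on chromosome 16. Parp14 measured 123, 86.2 and 96.03 CPM in WT AC, 79.2, 72.3 and 79.95 in WT FAC, 112, 88.6 and 119 in KO AC, and 37.1, 56.4 and 40.5 in KO FAC. KO AC overlapped WT AC, and KO FAC lay below every other group. The log2 change with FAC was -0.40 (adjusted p = 0.119) in WT and -1.25 (SE 0.17, adjusted p = 0.000284) in KO, and the difference did not pass, at -0.85 (adjusted p = 0.0724). Under FAC it was lower in KO, with a log2 difference of -0.79 (SE 0.17, adjusted p = 0.00212). Parp9 measured 94.4, 83.5 and 88.3 CPM in WT AC, 83.1, 72.5 and 78.8 in WT FAC, 105, 96.98 and 103 in KO AC, and 53.4, 64.7 and 54.00 in KO FAC. Its KO FAC values were also the lowest of the 4 groups, with a log2 change with FAC of -0.18 (adjusted p = 0.154) in WT and -0.83 (SE 0.09, adjusted p = 2.54e-05) in KO. Its difference of -0.65 (SE 0.12, adjusted p = 0.0148) passed, but not without WT AC 3 (0.0515). Under FAC, Parp9 was lower in KO, with a log2 difference of -0.45 (adjusted p = 0.000745). Trim30a, which dampens inflammatory signalling, measured 12.2, 7.03 and 10.3 CPM in WT AC, 11.2, 11.8 and 11.3 in WT FAC, 20.2, 21.98 and 24.98 in KO AC, and 10.1, 13.4 and 13.6 in KO FAC. In this gene only KO AC stood apart, by log2 1.18 (SE 0.17, adjusted p = 0.000109) over WT, and FAC lowered it in KO by a log2 fold change of -0.86 (SE 0.17, adjusted p = 0.00222). The difference of the FAC effects was -1.07 (SE 0.24, adjusted p = 0.0335). That call was lost without WT AC 2 (0.0541) or 3 (0.0843), or WT FAC 4 (0.0757), 5 (0.0806) or 6 (0.073), or KO AC 2 (0.069) or 3 (0.0818), or KO FAC 5 (0.0629), and when reads of Trim30a and its copy Trim30d were summed (0.0726).

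The 2 chemokines, which both attract T cells through Cxcr3, parted ways. Cxcl9 measured 32.99, 29.1 and 29.1 CPM in WT AC, 52.7, 63.1 and 52.5 in WT FAC, 110.5, 99.6 and 86.97 in KO AC, and 170.1, 181 and 180.2 in KO FAC. The 4 groups did not overlap and rose in the order WT AC, WT FAC, KO AC and KO FAC. FAC raised Cxcl9 by a log2 fold change of 0.88 (SE 0.10, adjusted p = 6.56e-05) in WT and 0.84 (SE 0.09, adjusted p = 5.15e-05) in KO, and KO was above WT by log2 1.70 (SE 0.10, adjusted p = 1.58e-08) under AC and 1.66 (SE 0.10, adjusted p = 1.32e-08) under FAC. The FAC effects did not differ detectably between genotypes, with a log2 difference of -0.05 (SE 0.14, adjusted p = 0.893). It was the sole member called higher with FAC in KO. Cxcl10 measured 40.4, 31.6 and 31.1 CPM in WT AC, 18.1, 18.1 and 23.5 in WT FAC, 37.3, 30.5 and 27.8 in KO AC, and 13.5, 33.8 and 13.1 in KO FAC. The WT FAC values lay below all WT AC values, while KO FAC 5 lay within the KO AC range. Its log2 change with FAC was -0.79 (SE 0.32, adjusted p = 0.118) in WT and -0.67 (SE 0.32, adjusted p = 0.141) in KO, and no comparison passed.

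**Figure D4:**
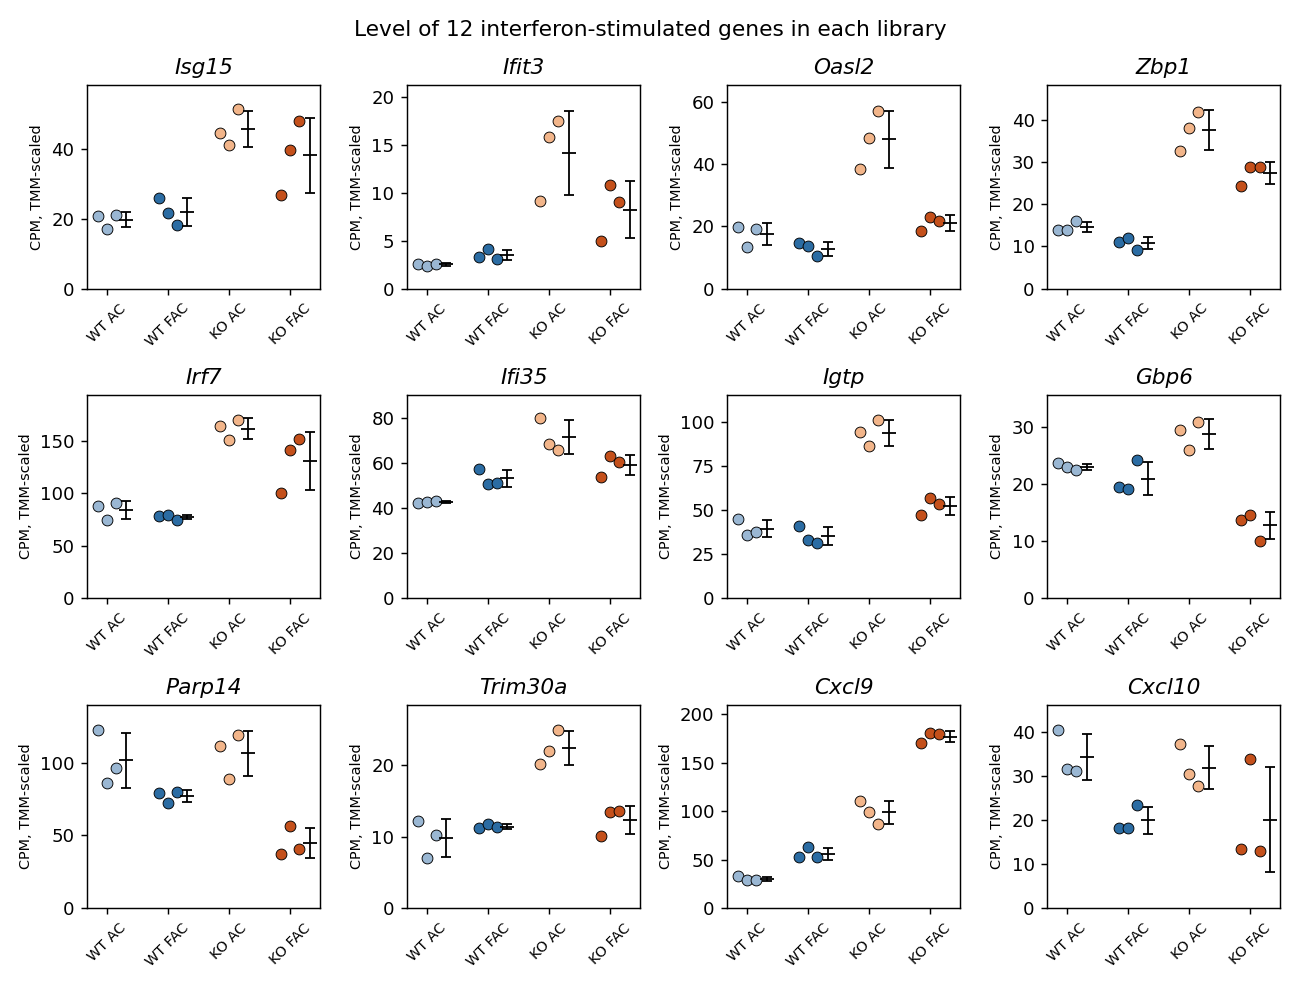
CPM (y axis, from 0) of 12 members in each of the 4 groups (x axis). Each point is a library, and the bar beside each group is the mean and SD of its 3 libraries. In Igtp, Oasl2 and Trim30a the KO AC points stand apart, in Gbp6 and Parp14 the KO FAC points are the lowest, and Cxcl9 rises from group to group.

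Split by promoter sequence, 10 of the 18 members with an ISRE core and 4 of the 10 without one fell with FAC in KO, where 14.6% of all genes did. The median log2 changes were -0.70 and -0.29. Higher in KO under AC were 14 of the 18 with the core and 7 of the 10 without, where 21.7% of all genes were. The medians were 0.64 and 0.71. All genes were not split by the core. Both kinds of window were thus found among members that changed and among members that did not. With so few windows these are counts and not a test.

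The genes that carry the interferon signal were followed from lists of the pathway. Of 21 interferon genes listed, 3 were in the table (Ifnb1, Ifnk and Ifnz) and none had enough reads to be tested. Ifnb1 had at most 0.131 CPM. Of the 6 receptor genes, Ifngr1 was the one that fell most with FAC. It measured 181, 208 and 185 CPM in WT AC, 138, 134 and 165 in WT FAC, 165, 171 and 181 in KO AC, and 97.3, 111 and 81.3 in KO FAC, and its log2 change was -0.39 (adjusted p = 0.0226) in WT and -0.84 (SE 0.11, adjusted p = 0.000148) in KO. The fall in WT was not called without WT AC 2 (0.0809) or 3 (0.0502), or WT FAC 4 (0.0883) or 5 (0.0983). Ifngr2 fell with FAC in KO by a log2 fold change of -0.54 (adjusted p = 0.0388), with KO FAC 6 at 84.6 CPM and the other KO FAC libraries at 142 or more. That call was lost without KO AC 1 (0.0833), 2 (0.0722) or 3 (0.106), or KO FAC 5 (0.0577). It was also lost in a fit of the KO groups alone (0.135) and with no filter on low counts (0.0713). Under FAC, Ifngr1 was also lower in KO than in WT, with a log2 difference of -0.60, and was called in all 16 alternatives. Ifnar2 was lower in KO, with log2 differences of -0.28 (adjusted p = 0.0178) under AC and -0.35 (adjusted p = 0.00426) under FAC, and Ifnar1 passed no test. Between genotypes, 1 of 6 receptor genes was lower in KO under AC (21.2% of all genes) and 2 of 6 under FAC (24.9% of all genes), and 0 were higher. The Ifnar2 call under AC was lost without WT AC 2 (0.0538) or 3 (0.0526), or KO AC 3 (0.0613). In all, 1 of 6 receptor genes fell with FAC in WT, where 8.55% of all genes did, and 2 of 6 in KO, where 14.6% did.

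Of 8 genes of Jak and Stat signalling, 2 fell with FAC in WT (8.55% of all genes) and 3 in KO (14.6% of all genes), and none rose. Between genotypes, 2 were higher and 4 lower in KO under AC (21.7% and 21.2% of all genes), and none was higher and 4 were lower under FAC (24.6% and 24.9% of all genes). The kinase Jak2 was lower in KO under both treatments, with log2 differences of -0.48 (adjusted p = 0.000419) and -0.65 (adjusted p = 2.83e-05), and fell with FAC by log2 fold changes of -0.29 (adjusted p = 0.0245) in WT and -0.46 (adjusted p = 0.00129) in KO. The call in WT was lost without WT AC 1 (0.0885) or 3 (0.0568), or WT FAC 4 (0.0952) or 5 (0.103). Tyk2 and Irf2 were lower in KO under FAC, with log2 differences of -0.24 (adjusted p = 0.0177) and -0.31 (adjusted p = 0.00822). The Tyk2 call was lost without WT FAC 6 (0.0587), or KO FAC 4 (0.0694). Stat3 fell with FAC in KO by a log2 fold change of -0.23 (adjusted p = 0.0226), which was lost without KO AC 2 (0.0818) or 3 (0.0842), or KO FAC 5 (0.1). The Stat3 call was also lost in a fit of the KO groups alone (0.0915). Irf2bp2 was higher in KO under AC, by log2 0.54 (adjusted p = 0.0439), and its call was lost without WT AC 1 (0.131), 2 (0.0892) or 3 (0.0728), or KO AC 2 (0.193) or 3 (0.116).

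Of 12 tested genes that lead to interferon production, 4 fell with FAC in KO, where 14.6% of all genes did, and none in WT, where 8.55% did. Tlr4, the receptor for bacterial lipopolysaccharide, measured 10.8, 9.30 and 8.32 CPM in WT AC, 13.2, 13.4 and 12.5 in WT FAC, 12.7, 15.9 and 15.6 in KO AC, and 9.51, 8.83 and 6.52 in KO FAC. FAC raised it in WT and lowered it in KO, by log2 fold changes of 0.46 (adjusted p = 0.0421) and -0.84 (adjusted p = 0.00112), and the difference of -1.30 (SE 0.21, adjusted p = 0.00742) passed. The rise in WT was not called without WT AC 2 (0.0996) or 3 (0.162), or WT FAC 4 (0.108), 5 (0.119) or 6 (0.0787). The transcription factor Irf5 fell with FAC in KO by a log2 fold change of -0.80 (adjusted p = 0.0126) and was higher in KO under AC by log2 0.70 (adjusted p = 0.0155). The fall was not called in a fit of the 2 KO groups alone (0.061) or without both KO AC 1 and KO FAC 4 (0.0516). The difference under AC was a call lost without WT AC 1 (0.0541) or 3 (0.0582), or KO AC 1 (0.0518). The adaptor Ticam1 (TRIF) was higher in KO by log2 0.65 (adjusted p = 8.89e-05) under AC and 0.53 (adjusted p = 0.000437) under FAC, and fell with FAC in KO by a log2 fold change of -0.34 (adjusted p = 0.0129). That fall was not called without KO AC 3 (0.0614) or in a fit of the KO groups alone (0.0535). The DNA sensor Cgas was lower in KO under AC, with a log2 difference of -1.77 (adjusted p = 0.00163). It had few reads, at 33, 22 and 21 in WT AC and 4, 7 and 10 in KO AC. Tlr3, a receptor for double-stranded RNA, was lower in KO under FAC, with a log2 difference of -0.48 (adjusted p = 0.0372), a call lost without WT FAC 4 (0.0811), 5 (0.0685) or 6 (0.0857), or KO FAC 4 (0.157) or 5 (0.0522).

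Among 11 negative regulators, 1 rose and 2 fell with FAC in KO, where 15% of all genes rose and 14.6% fell. Socs3 rose with FAC in KO by a log2 fold change of 0.57 (adjusted p = 0.0187), which was lost without KO AC 3 (0.0847), or KO FAC 5 (0.0771), and in a fit of the KO groups alone (0.0549). Adar and Ptpn11 fell there by log2 fold changes of -0.57 (adjusted p = 0.00174) and -0.48 (adjusted p = 0.00047). With FAC in WT, 1 of the 11 fell, which was Ptpn11, and 0 rose, where 8.55% and 8.7% of all genes did. The Ptpn11 call in WT was lost without WT AC 1 (0.115) or 3 (0.0508), or WT FAC 4 (0.0943) or 6 (0.111). The exonuclease Trex1, which removes stray DNA, was higher in KO by log2 0.60 (adjusted p = 0.00296) under AC and 0.55 (adjusted p = 0.0052) under FAC.

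A further list of 82 interferon-stimulated genes that are not among the 39 had 55 tested genes. With FAC in KO, 27 of the 55 (49.1%) were lower and 2 (3.64%) higher, with a median of -0.40, where 14.6% and 15% of all genes were. In WT, 7 (12.7%) were lower and 3 (5.45%) higher, with a median of -0.11, where 8.55% and 8.7% of all genes were. Between genotypes under AC, 20 (36.4%) were higher in KO and 9 (16.4%) lower, with a median of 0.28, where 21.7% and 21.2% of all genes were. Under FAC, 14 (25.5%) were higher and 10 (18.2%) lower, where 24.6% and 24.9% of all genes were. The largest falls with FAC in KO were those of the death ligand Tnfsf10, the nuclear body protein Sp100 and Gbp9, at log2 fold changes of -2.80 (adjusted p = 0.00382), -1.78 (adjusted p = 0.0088) and -1.54 (adjusted p = 0.000488). Both Tnfsf10 and Sp100 were at most 3.50 CPM. In WT the largest called falls were Tnfsf10, Slfn9 and Tgtp1, at -2.35 (adjusted p = 0.0392), -1.25 (adjusted p = 0.00998) and -0.77 (adjusted p = 0.0467). The Tnfsf10 and Tgtp1 calls were each lost without any 1 of the 6 WT libraries, at adjusted p of 0.0511 to 0.117 and 0.0711 to 0.158. Highest in KO under AC were Ifit3b, at 2.08 (adjusted p = 0.000161), and Phf11d, at 1.67 (adjusted p = 5.86e-06), whereas the DNA sensor Aim2 was lower, at -1.71 (adjusted p = 0.00249). Under FAC, Slfn8, Aim2 and the chemokine Ccl5 were lower in KO, at -2.04 (adjusted p = 0.00138), -2.01 (adjusted p = 0.000697) and -1.71 (adjusted p = 0.000126). Aim2 had few reads, at 18, 15 and 16 in WT AC, 17, 18 and 19 in WT FAC, 6, 2 and 6 in KO AC, and 3, 5 and 4 in KO FAC. So had Slfn8, at 19.35, 16.65 and 18.99 in WT FAC and 5, 1 and 5.64 in KO FAC.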

How the data were processed

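Total RNA extracted with Trizol was sequenced on a BGISEQ-500, per the labels' protocols. The authors deposited estimated counts per gene (RSEM, with builds mm10 and GRCm38.p6, per the submitters' processing notes), together with FPKM and TPM values and group means. The deposited TPM values and group means were not used. The aligner, annotation release and strand setting are not given in the sources used here.

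Estimated counts were rounded to whole numbers and scaled by TMM, and edgeR 4.0.16 (R 4.3.3) fitted all 12 libraries as 4 group means with a robust quasi-likelihood test. Genes had to pass filterByExpr with a minimum count of 10, which kept 12275 of 16728, and p-values were adjusted by Benjamini-Hochberg over all of them. The threshold for a call was an adjusted p under 0.05. SE is the absolute log2 fold change divided by the square root of F. The biological coefficient of variation was 10.8%, and total counts were 16464494 to 18335700. The method was tested on simulated data. Levels between genes use the deposited FPKM values.

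Every member is accounted for. Values per library are given for up to 12 called members of largest change in a comparison, and for Cxcl10 and other members where a role needed them. From each pathway list, up to 3 called genes were named per comparison, and the interferon receptors Ifnar1, Ifnar2, Ifngr1 and Ifngr2 always. Some genes of the lists are not reported here by name. The members and lists were chosen with earlier results of these data known. Alternatives were DESeq2 1.42.0, median-of-ratios scaling, no filter, limma 3.58.1 on log2(FPKM + 1) and log2(FPKM + 0.1), a fit of the compared groups alone, a replicate block, libraries left out, and, added after the data were seen, the summing of reads from near-identical copies. RSEM divides reads that fit several genes, so Ifit3, Gbp6, Oas1a and Trim30a, which have close copies, and Oas3 and Parp9, whose estimated counts were also not whole, are uncertain.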

Additional observations from a re-analysis of the deposited data

Results flagged for a closer look

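In each result here the effect of FAC differed between WT and KO in a test of the difference itself (edgeR, adjusted over all genes), and each value is the log2 fold change in KO minus that in WT. Among the members, Trim30a had -1.07 (adjusted p = 0.0335), Gbp6 -1.03 (adjusted p = 0.0128), Igtp -0.67 (adjusted p = 0.0429), Parp9 -0.65 (adjusted p = 0.0148) and Ifi35 -0.59 (adjusted p = 0.0251). Of 21 alternatives, Igtp was not called in 12, Trim30a in 10, Ifi35 in 4, Parp9 in 2 and Gbp6 in 1. With the replicate block, none of these members was called.

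Among the pathway genes, Gbp9 had -1.43 (adjusted p = 0.0328), Tlr4 -1.30 (adjusted p = 0.00742), Phf11d -1.02 (adjusted p = 0.0394) and Herc6 -0.62 (adjusted p = 0.0442). Gbp9 was not called in 11 of 21 alternatives, at adjusted p of 0.0523 to 0.0915, and neither was Phf11d, at 0.0516 to 0.105, or Herc6, at 0.0507 to 0.115. Tlr4 was called in all 21.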

How the results depend on the processing

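Over the alternatives that kept all libraries or left out a pair, the members lower with FAC in KO numbered 17 to 24, those higher in KO under AC 23 to 27, and those higher in KO under FAC 13 to 18. Leaving out single libraries gave 18 to 23, 22 to 25 and 12 to 17. Other counts moved more. For FAC in WT, single libraries left out gave 1 to 2 members higher, 0 to 8 lower, and 1264 to 1663 of all genes called, and a fit of the WT groups alone gave 7 lower and 3352 of all genes, against 2117. For FAC in KO, 3633 of all genes were called, 2198 in a fit of the KO groups alone and 2365 to 4088 with a library left out. Members lower in KO under FAC numbered 3 to 7 with a library left out. For the difference of the FAC effects, 5 members were lower and 387 of all genes were called. DESeq2 gave 9 and 678, limma on log2(FPKM + 1) called 584 of all genes, leaving out KO AC 1 and KO FAC 4 gave 10 and 1932, and single libraries left out gave 1 to 7 and 93 to 656. With the replicate block, 0 members and 84 genes were called, and the adjusted p of the 5 members was 0.0609 to 0.104. Same-numbered libraries of the 2 genotypes did not deviate together, with correlations of -0.20, -0.15 and -0.01 under AC and 0.16, -0.17 and 0.28 under FAC. The numbers were thus not taken to pair samples across genotypes. Whether AC and FAC libraries of the same genotype were paired was not examined, and these correlations cannot show it. The cause of the fewer calls with the block was not tested. Directions that turned were all of values near 0. Ifnar1 in KO under AC was 0.0026, and -0.0017 with the groups alone, -0.0043 with the replicate block, -0.11 without either pair of KO libraries, and -0.11 to 0.067 with a library left out. The Ifnar1 difference of -0.14 became 0.023 and 0.032 without KO AC 1 and KO FAC 4 or KO FAC 6, and -0.25 to -0.03 with a library left out. The Ifnar2 difference of -0.07 became 0.059 without KO AC 1 and KO FAC 6, and -0.15 to 0.039 with a library left out. With limma on log2(FPKM + 1), calls over all genes were higher in 41.3% for FAC in WT, 33.9% for FAC in KO and 37.9% for KO under AC, against 50.4%, 50.6% and 50.7% in the edgeR fit.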
